A study of Mus musculus with 12 samples.

Results

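The mRNA of 10 transcription factors that establish or maintain B cell identity was followed in LPS-activated mouse B cells before and after DNA damage. The factors were Pax5, Ebf1, Tcf3, Bach2, Bcl6, Ikzf1, Ikzf3, Pou2f2, Pou2af1 and Spib. They were taken by gene symbol from the deposited table of normalized counts, in which they are 10 of 29486 genes, and all 10 passed the filter on low values that kept 15507 genes. Splenic B cells of C57BL/6Babr mice were isolated and cultured with LPS (lipopolysaccharide, a bacterial mitogen that drives B cells to divide and to differentiate), and polyadenylated RNA was sequenced in 12 libraries, 4 biological replicates for each of 3 conditions. The LPS group received LPS alone (10 μg/ml, 48 h). The LE group received LPS and then etoposide (20 μM, 4 h), an inhibitor of topoisomerase II that leaves double-strand breaks in DNA. The LEKU group received LPS for 47 h, then the ATM kinase inhibitor KU55933 (10 μM) for 1 h, and then etoposide (20 μM, 4 h). All 3 groups therefore carried LPS, no group received KU55933 without etoposide, and whether the LPS group was also cultured through the 4 h of etoposide is not given in the sources used here. The mice were 8 to 12 weeks old, and their sex is not given there either.

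B cell identity is built by a small network of DNA-binding proteins. Tcf3 (E2A) and Ebf1 open the B lineage program in progenitors, Pax5 commits cells to it by activating B cell genes and holding down genes of other lineages, and Ikaros proteins, Spi-B and the Oct2-OBF1 pair act with them in mature cells. Bcl6 and Bach2 restrain the change into antibody-secreting plasma cells, which takes place when Blimp1 (Prdm1) and Irf4 gain the upper hand and Pax5 is lost.

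The values in the table allow a description of these factors and no test. Within each condition the 4 columns kept the same ratio for every gene, to within 1.4e-14 on the log2 scale, so that they hold 1 fitted mean per condition multiplied by a library factor. For Pax5 the columns read 4531, 5027, 5230 and 4712 with LPS, 1090, 1222, 1480 and 1185 in LE, and 1058, 1193, 1278 and 1299 in LEKU. For Spib they read 10418, 11558, 12023 and 10834 with LPS, 16611, 18618, 22549 and 18049 in LE, and 16650, 18776, 20115 and 20446 in LEKU. The spread within a condition is thus the library factor alone, which ranged from 0.818 to 0.944 with LPS, from 0.972 to 1.32 in LE and from 0.908 to 1.11 in LEKU. Column totals, which stand for depth, in units of 1000000 counts were 20.7 to 23.9 with LPS, 22.5 to 30.6 in LE and 20.4 to 25.1 in LEKU. Each value below is the mean of a condition after division by these factors, has no replicate error, and was called higher or lower when it differed by more than 1.5-fold (0.585 on the log2 scale, after adding 1 count). No p-value or standard deviation can be computed from this table, and the separate comparison files of the authors were not used. The libraries of a condition carried Illumina indexes used in no other condition, so that index and treatment cannot be told apart.

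With etoposide, 8 of the 10 factors fell past 1.5-fold and 7 of these past 2-fold, from the 1.94-fold fall of Pou2f2 to the 5.10-fold fall of Ikzf1. None rose past 1.5-fold. Over all genes kept, 16.2% were lower and 21.9% were higher by the same call, and over the 13810 that passed the filter in both LPS and LE, as all 10 factors did, 17.2% were lower and 16.4% were higher. The median log2 fold change of the factors was -1.59 (range -2.35 to 0.42), against -0.01 for all genes kept, whose middle 50% lay between -0.39 and 0.47. The exceptions were Bcl6, at 77.4% of its LPS level, and Spib, at 134% of it. In bulk RNA, fewer cells of a type and less RNA per cell cannot be told apart.

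**Figure D1:**
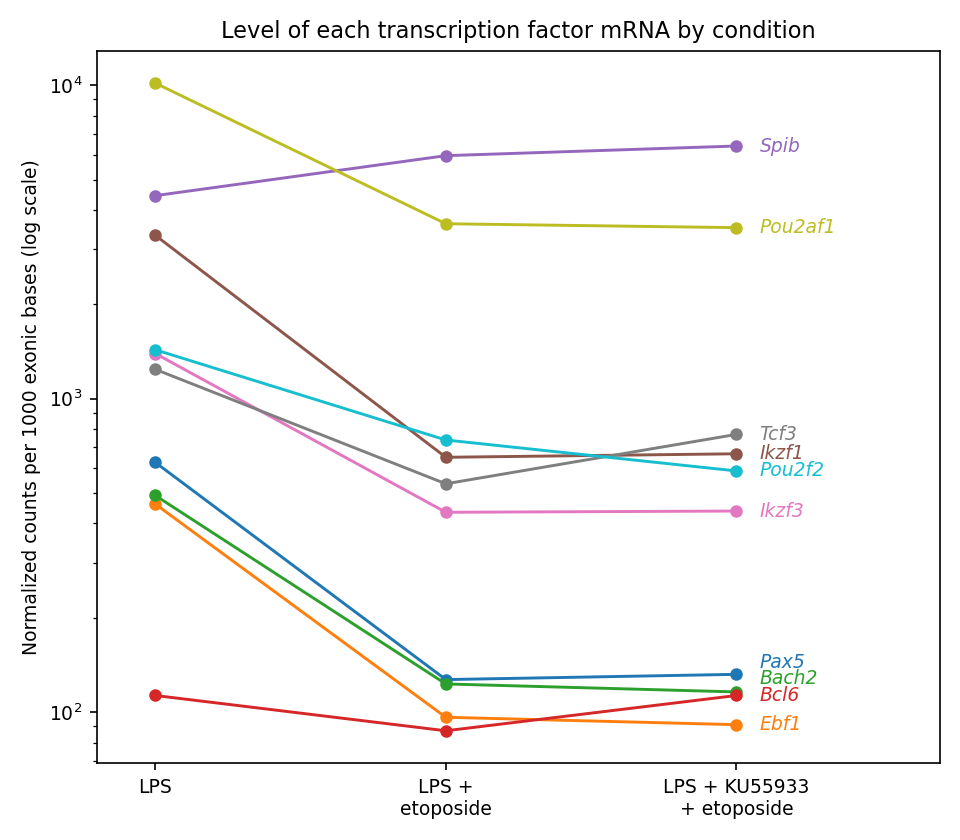
Level of each factor in normalized counts per kilobase of exon (log scale) with LPS, with LPS and etoposide, and with LPS, KU55933 and etoposide. Points are condition means with no replicate error, and lines join the values of a gene. Pou2af1 led with LPS at 10148, whereas Spib led in LE at 5957 and in LEKU at 6395.

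With KU55933 before etoposide, the 10 factors stayed within 1.5-fold of their etoposide levels, as most genes kept did. Against LE, 0 of 10 were lower and 0 were higher past 1.5-fold in LEKU, where 11.6% of all genes kept were lower and 7.16% were higher. With shares this small, 0 of 10 does not set the factors apart from other genes. The median log2 fold change of the factors was 0.02 (range -0.33 to 0.52), against -0.04 over all genes kept. Against LPS, 8 of 10 were lower and 0 were higher in LEKU, with a median of -1.60 (all genes kept: 15.5% lower, 20.5% higher, median 0.02). The 3 comparisons share their groups in pairs, so that they are not independent of each other.

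Sequences around the transcription start are shown for 4 of these factors, chosen because they took different courses: Spib, which stood higher after etoposide, Pax5 and Ikzf1, which fell 4.94-fold and 5.10-fold, and Bcl6, which stayed within 1.5-fold. They are RefSeq windows on GRCm38.p6 of 300 bases, 250 before and 50 after the annotated start. Such windows were matched for 9 of the 10 factors, 12 windows in all, and Ikzf3 was not matched. Capitals mark the motifs found in a window. The Spib window is chr7:44532022-44532321 and the Pax5 window chr4:44710645-44710944, both on the minus strand. The Ikzf1 window is chr11:11685675-11685974 on the plus strand, the first of 2 for this gene, and the Bcl6 window is chr16:23981234-23981533 on the minus strand, the second of 2. This Bcl6 window lies at a start inside the annotated gene, whereas the first, chr16:23988803-23989102, spans the 5' end of the gene. The windows of Ikzf1, Ebf1, Bach2 and Pou2f2 also lie inside the annotated genes.
Spib: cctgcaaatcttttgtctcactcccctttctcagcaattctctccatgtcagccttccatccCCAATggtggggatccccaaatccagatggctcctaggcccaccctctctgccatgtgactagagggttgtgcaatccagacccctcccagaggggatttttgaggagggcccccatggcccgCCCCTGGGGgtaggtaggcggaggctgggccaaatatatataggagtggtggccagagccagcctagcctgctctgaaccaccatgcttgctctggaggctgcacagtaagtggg
Pax5: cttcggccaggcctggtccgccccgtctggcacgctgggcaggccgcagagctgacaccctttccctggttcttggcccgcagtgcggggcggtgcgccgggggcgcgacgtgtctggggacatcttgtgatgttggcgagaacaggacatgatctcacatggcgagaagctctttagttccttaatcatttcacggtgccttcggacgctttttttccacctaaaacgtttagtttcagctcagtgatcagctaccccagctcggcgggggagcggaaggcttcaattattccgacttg
Ikzf1: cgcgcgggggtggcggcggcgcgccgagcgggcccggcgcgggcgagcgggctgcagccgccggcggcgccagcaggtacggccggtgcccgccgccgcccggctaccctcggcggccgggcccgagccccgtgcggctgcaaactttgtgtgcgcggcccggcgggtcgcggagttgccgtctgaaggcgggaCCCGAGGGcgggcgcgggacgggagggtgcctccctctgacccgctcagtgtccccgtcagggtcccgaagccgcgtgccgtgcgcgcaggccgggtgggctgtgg
Bcl6: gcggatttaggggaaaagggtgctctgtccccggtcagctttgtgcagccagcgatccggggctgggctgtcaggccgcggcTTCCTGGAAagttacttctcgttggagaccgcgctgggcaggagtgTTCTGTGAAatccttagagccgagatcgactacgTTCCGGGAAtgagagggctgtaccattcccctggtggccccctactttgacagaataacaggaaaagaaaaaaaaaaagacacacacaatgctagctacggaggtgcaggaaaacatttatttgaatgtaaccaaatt

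The windows were searched on both strands for short cores that B cell factors bind: ATTTGCAT (octamer, Oct2), GAGGAA (Ets, Spi-B), CAGGTG (E-box, Tcf3), TGGGAA (Ikaros), CCCNNGGG (Ebf1), TTCNNNGAA (Bcl6, also STAT proteins), TGAGTCA (Bach2, also AP-1), and for TATAAA and CCAAT. The Bcl6 window shown held TTCNNNGAA 3 times, 168, 122 and 88 bases before the start, and the other Bcl6 window held it once, 118 bases before. This motif is in 8.30% of 32851 mouse promoter windows of the same length. The Bach2 window and the other Ikzf1 window also held it. The Spib window held CCCNNGGG at 65 and 64 bases before the start, 2 overlapping readings of the same run of bases, and the Ikzf1 window shown held it 56 bases before the start, where 13.7% of all windows hold it. GAGGAA was found in windows of Ebf1, Bcl6, Pou2af1 and Pou2f2 (28.3% of all windows), TGGGAA in a window of Ebf1 (25.6%), and CCAAT in those of Bach2, Spib and Pou2af1 (37.4%). No listed motif was found in the windows of Pax5 and Tcf3. The octamer (1.74% of all windows), CAGGTG (20.2%), TGAGTCA (5.20%) and TATAAA (13.6%) were found in none of the 12. The windows differed widely in base composition. Of those shown, that of Ikzf1 held 52 CG dinucleotides at 81.3% G and C, and that of Pax5 held 23 at 59.0%. That of Bcl6 held 14 at 51.7% and that of Spib held 2 at 58.0%, whereas the median window held 7 at 52.7%. Composition also differed within a gene: the other Ikzf1 window held 2 at 49.0% and the other Bcl6 window 31 at 62.7%. A match is a string of letters in a window and not a measured binding site.

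Pax5, Ebf1 and Tcf3 set up the B lineage. Pax5 (ENSMUSG00000014030, chr4:44524757-44710487, minus strand) was measured at 5540 normalized counts with LPS, 1122 in LE and 1165 in LEKU. It fell 4.94-fold with etoposide (log2 fold change -2.30) and stood at 104% of its LE level with KU55933. Ebf1 (ENSMUSG00000057098, chr11:44617317-45008091, plus strand) followed the same course, with 4501, 939 and 890 counts and a fall of 4.79-fold with etoposide (-2.26). In LE, Pax5 stood at 20.3% and Ebf1 at 20.9% of the level with LPS.

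Tcf3 (ENSMUSG00000020167, chr10:80409514-80433647, minus strand) gave 5007 counts with LPS, 2162 in LE and 3105 in LEKU. It fell 2.31-fold with etoposide, to 43.2% of its LPS level, and reached 62.0% of it with KU55933. Its log2 fold change with KU55933 was 0.52, the highest of the 10, and did not pass the call. Pax5, Ebf1, Bach2, Ikzf1 and Ikzf3 lay between -0.08 and 0.06 in the same comparison.

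Id proteins bind E proteins such as Tcf3 and keep them off DNA. Of the 4 Id genes 3 were kept, and the 2 that passed the filter with LPS moved in opposite directions with etoposide. Id2 rose from 114 counts with LPS to 694 in LE and 761 in LEKU (log2 fold change 2.59 with etoposide). Id3, the more abundant of the family with LPS, fell from 955 to 290 and 237 (-1.72). Id1, at 3.54, 18.6 and 15.0 counts, was kept only through the etoposide libraries, a selection that favours a rise. Of the 1535 genes kept while under the filter with LPS, 1141 were higher in LE. None of the 3 passed the call with KU55933. Per kilobase of exon, Tcf3 stood at 26.4 times the level of Id2 with LPS, at 1.88 times in LE and at 2.46 times in LEKU, whereas its ratio to Id3 was 2.33, 3.31 and 5.80. The E proteins related to Tcf3 also fell with etoposide: Tcf4 from 6444 counts to 2461 (-1.39) and Tcf12 from 3537 to 2139 (-0.73), with 2185 and 1986 counts in LEKU.

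Bach2 and Bcl6, both repressors that hold off plasma cell differentiation, parted. Bach2 (ENSMUSG00000040270, chr4:32238804-32586108, plus strand) was at 4885 counts with LPS, 1221 in LE and 1157 in LEKU, a fall of 4.00-fold with etoposide. Bcl6 (ENSMUSG00000022508, chr16:23965052-23988852, minus strand), the factor of germinal centre B cells, was at 755, 584 and 756 counts. Its log2 fold change of -0.37 with etoposide and of 0.37 with KU55933 stayed within 1.5-fold, and LEKU was within 1 count of LPS. Bcl6 was the lowest of the 10 per kilobase with LPS, at 113, where Bach2 stood at 491, and in LE the gap had closed to 87.2 against 123. Bach1, the relative of Bach2 that many tissues express, was at 608 counts with LPS, 650 in LE and 885 in LEKU. The per-kilobase ratio of Bach2 to Bach1 was 4.99, 1.17 and 0.812 in the same order.

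The change of these repressors was set beside genes of plasma cells. Over all genes kept, 21.9% were higher and 16.2% lower with etoposide, and 7.16% higher and 11.6% lower with KU55933 against LE. Of 9 genes of plasma cell differentiation kept, 1 rose and 0 fell with etoposide (median log2 fold change -0.21), and 4 fell and 0 rose with KU55933 against LE (median -0.49). The gene that rose was Sdc1, which encodes the plasma cell surface protein syndecan-1, from 138 counts with LPS to 1953 in LE and 636 in LEKU. Irf4, which drives plasma cell fate at high dose, was at 10983, 11754 and 6032 counts and fell with KU55933 (-0.96). Prdm1 was at 2360, 1715 and 1220 counts and passed the call only in LEKU against LPS (-0.95). Since Bach2 and Pax5 fell more than Prdm1, the per-kilobase ratio of Bach2 to Prdm1 was 1.16 with LPS, 0.400 in LE and 0.532 in LEKU, and that of Pax5 to Prdm1 was 1.48, 0.412 and 0.602.

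Ikzf1 (Ikaros) and Ikzf3 (Aiolos) are zinc finger proteins that recruit chromatin remodelling complexes in lymphocytes. Ikzf1 (ENSMUSG00000018654, chr11:11685003-11772926, plus strand) showed the deepest fall of the 10, from 19175 counts with LPS to 3756 in LE and 3853 in LEKU (log2 fold change -2.35 with etoposide). Among 15431 genes ranked by counts per kilobase it moved from the top 2.29% with LPS to the top 13.7% in LE. Ikzf3 (ENSMUSG00000018168, chr11:98464902-98546031, minus strand) gave 12198, 3802 and 3833 counts, a 3.21-fold fall (-1.68). With KU55933 both stayed within 0.04 of their LE level on the log2 scale. Other members of the family behaved differently. Ikzf4 (Eos) rose with etoposide from 59.3 counts to 305 (2.34) and fell with KU55933 to 123 (-1.31), Ikzf5 stayed at 1171, 1319 and 1284 counts, and Ikzf2 (Helios) was under the filter with 1.78, 6.42 and 4.48 counts.

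Pou2f2 (Oct2) binds the octamer of immunoglobulin promoters, and Pou2af1 (OBF1) is the coactivator that joins it there. Pou2af1 (ENSMUSG00000032053, chr9:51213708-51240080, plus strand) was the most abundant of the 10 with LPS, at 25867 counts and within the top 0.622% of genes per kilobase. It fell 2.81-fold to 9208 counts in LE and stood at 8950 in LEKU. Pou2f2 (ENSMUSG00000008496, chr7:25087344-25179726, minus strand) gave 11806, 6086 and 4851 counts. Its 1.94-fold fall with etoposide was the smallest of the 8, and its log2 fold change of -0.33 with KU55933 was the lowest of the 10 and did not pass the call. Pou2f1 (Oct1), the relative found in most cells, was at 2029, 2706 and 1407 counts. It did not pass the call with etoposide (0.42) and fell with KU55933 (-0.94). The per-kilobase ratio of Pou2f2 to Pou2f1 was 11.7 with LPS, 4.53 in LE and 6.94 in LEKU. Of 6 genes reported downstream of Oct2 or OBF1, a list that also holds Spib and Bcl6, 2 fell and 0 rose with etoposide (median log2 fold change -0.33). They were Cd36, a scavenger receptor, from 8242 counts to 3314, and Btk, a kinase of the B cell receptor pathway, from 4746 to 2513. With KU55933 2 fell, Il5ra from 322 counts to 153 and Cd36 from 3314 to 1945. Among all genes kept 16.2% were lower and 21.9% higher with etoposide, and 11.6% lower and 7.16% higher with KU55933.

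Spib (Spi-B, ENSMUSG00000008193, chr7:44525993-44532071, minus strand) is an Ets factor of lymphoid and plasmacytoid dendritic cells. It was the only one of the 10 with a higher value after etoposide, 12738 counts with LPS, 17085 in LE and 18342 in LEKU. These log2 fold changes against LPS, 0.42 in LE and 0.53 in LEKU, lay under the call of 0.585, and they passed it under other scalings: 0.69 in LE and 0.84 in LEKU with quantile normalization, and 0.59 in LEKU with trimmed-mean (TMM) factors. Its close relative Spi1 (PU.1), which shares its DNA motif, was at 1012, 1135 and 937 counts, so that Spib stood 11.8, 14.2 and 18.4 times above it per kilobase. As 8 of the other factors fell, the balance among the 10 shifted. Summed over the 10, the level was 23665 counts per kilobase with LPS, 12361 in LE and 12821 in LEKU. Spib made up 18.8%, 48.2% and 49.9% of it, and Pou2af1 42.9%, 29.2% and 27.4%. The per-kilobase ratio of Spib to Pax5 was 7.10 with LPS, 47.0 in LE and 48.6 in LEKU.

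**Figure D2:**
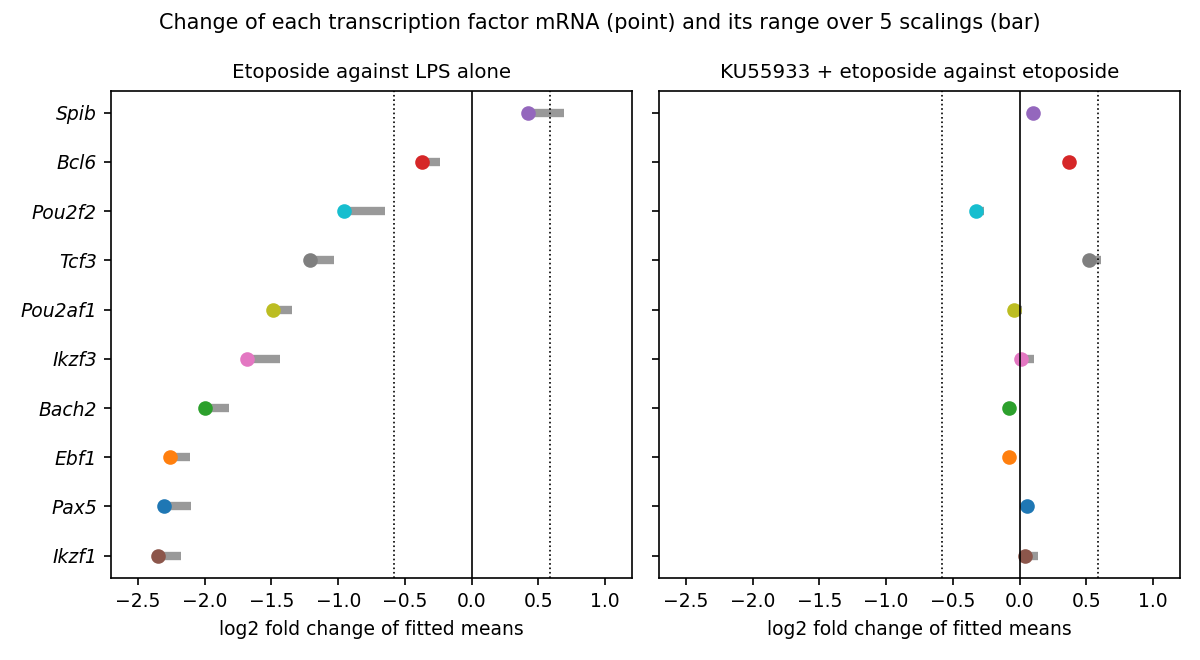
Log2 fold change of each factor with etoposide against LPS (left) and with KU55933 and etoposide against etoposide (right). Points are the values of the report, bars their range over 5 scalings, and dotted lines 1.5-fold. On the left 8 points lie beyond the lower line, and on the right none of the 10 points passes either line. The bars of Spib on the left and of Tcf3 on the right cross the upper line, and on the right the bar of Pou2af1 crosses 0.

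The order of the levels per kilobase with LPS was Pou2af1, Spib, Ikzf1, Pou2f2, Ikzf3, Tcf3, Pax5, Bach2, Ebf1 and Bcl6, from 10148 to 113. In LE it was Spib, Pou2af1, Pou2f2, Ikzf1, Tcf3, Ikzf3, Pax5, Bach2, Ebf1 and Bcl6, from 5957 to 87.2. In LEKU, Tcf3 moved up to the third place at 769 and Ebf1, at 91.2, came under Bcl6. Neighbours in these orders, such as Pou2f2 at 1432 and Ikzf3 at 1393 with LPS, cannot be set apart, since the table holds no spread between replicates. Pax5, Ebf1 and Bach2 were at 626, 461 and 491 with LPS, at 127, 96.3 and 123 in LE and at 132, 91.2 and 116 in LEKU, where Bcl6, at 113, lay among them.

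The genes with the most similar courses were looked up for Spib and Ikzf1, by the distance over both log2 fold changes against LPS among 10297 genes with at least 100 counts in every condition. For Spib the nearest 3 were Stx11, Zfyve27 and Ndel1, at distances of 0.0022 to 0.0174, and 98 genes lay within 0.1 of it. For Ikzf1 the nearest 3 were Pax5 (0.0827), Hdac9 (0.0840) and Ebf1 (0.0949), and no other gene lay within 0.1. Both genes were picked as the ends of the range of the 10, and the distances have no replicate error, so that these numbers describe where the genes lie.

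Other B cell transcription factors mostly fell too with etoposide, where 16.2% of all genes kept were lower and 21.9% higher. With KU55933 the shares of all genes kept were 11.6% lower and 7.16% higher. Of 17 such factors kept, 13 fell and 0 rose with etoposide (median log2 fold change -1.06), and with KU55933 2 fell and 2 rose (median -0.18). The deepest falls were those of Klf2, a factor of quiescence and homing, from 881 counts to 189 (-2.21), and Mef2c, which acts downstream of the B cell receptor, from 8356 to 1931 (-2.11). With KU55933 Runx3 rose from 2431 counts to 4638 (0.93) and Klf2 from 189 to 324 (0.77), whereas Irf4 and Nfatc1 fell, the latter from 2243 to 1303 (-0.78). Relatives of the 10 factors gave a mixed picture, with shares near those of all genes kept with etoposide. Of 14 such genes 10 were kept, of which 2 were lower and 2 higher with etoposide (median 0.17), and 2 fell and 0 rose with KU55933 (median -0.14). Those higher with etoposide were Ikzf4 and Ebf4, the latter at 9.10 counts with LPS and 18.9 in LE. Ebf4 was kept only through the treated libraries, a selection that favours a rise, and without it 1 of 9 rose.

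Of 18 genes that Pax5 and Ebf1 are known to activate or bind, 13 fell and 2 rose with etoposide (median log2 fold change -0.91), beside 16.2% and 21.9% of all genes kept. The largest falls were those of Cd22, an inhibitory coreceptor of the B cell receptor, from 24098 counts to 4274 (-2.49), and Fcer2a (CD23), the low-affinity IgE receptor, from 9572 to 2567 (-1.90). Cd55, which protects cells from complement, rose from 2174 to 6560 (1.59), and Bst1 rose from 31.6 to 52.6 (0.72). With KU55933 against LE, 14 of the 18 stayed within 1.5-fold (median 0.003). Of all genes kept, 11.6% were lower and 7.16% higher in that comparison. Among the genes past the call, Cd72, an inhibitory receptor of B cells, rose from 4403 counts to 7144 (0.70). Bst1 fell from 52.6 to 28.5 (-0.86) and Ms4a1 (CD20) from 20576 to 13342 (-0.62).

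Genes that Pax5 is known to hold down gave calls in both directions. Of 11 kept, 9 passed the filter in both LPS and LE, and of these 3 rose and 1 fell with etoposide (median 0.11, against 0.39 over the 11). Of all genes that passed it in both, 16.4% were higher and 17.2% lower. Sdc1 and Id2 rose most, and Notch1, a receptor of T cell fate, rose from 2813 counts to 6760. Csf1r, a macrophage receptor, was at 4.18 counts with LPS and 10.3 in LE and was kept only through the treated libraries. Flt3, a receptor of progenitors, fell from 2800 to 1651 (-0.76) and rose with KU55933 to 2941 (0.83). With KU55933 against LE, 3 of the 11 genes kept fell and 2 rose (median -0.20), beside 11.6% and 7.16% of all genes kept. The falls included Sdc1 (-1.62) and Jchain, the joining chain of secreted antibody, from 5124 counts to 2701 (-0.92).

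Of 15 genes that Bcl6 is known to repress, 3 rose and 4 fell with etoposide (median -0.30), shares of 20.0% and 26.7% that lie near those of all genes that passed the filter in both conditions (16.4% and 17.2%). Cdkn1a, the cell cycle inhibitor p21, which p53 induces, rose from 411 counts to 13440, and Id2 and Cd80, a costimulatory ligand, rose as well, the latter from 305 to 1758. Bcl2, which blocks cell death, fell from 5941 to 1749 (-1.76) and Myc, a factor of growth, from 3760 to 1570 (-1.26). With KU55933 Cxcl10, an interferon-induced chemokine, rose from 83.2 counts to 1552 (4.20), Cd80 fell to 1039 (-0.76) and Gpr183, a migration receptor, fell from 968 to 627 (-0.63), with a list median of -0.16. Corepressors that Bcl6 recruits were lower in 4 of 8 cases and higher in none with etoposide (median -0.54), with the deepest falls in Tbl1xr1, from 2828 counts to 1114, and Bcor, from 2979 to 1666. None of them passed the call with KU55933 (median 0.05), where 11.6% of all genes kept were lower and 7.16% higher.

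Subunits of NuRD, the remodelling complex that Ikaros proteins bind, fell in 3 of 11 cases and rose in 1 with etoposide (median -0.38). For all genes kept the shares were 16.2% lower and 21.9% higher. Mbd3 fell from 2528 counts to 1112 (-1.18) and Rbbp7 from 8565 to 4949 (-0.79), while the deacetylase Hdac2 rose from 1847 to 3174. Hdac2 fell back to 2001 with KU55933, the 1 call of this list against LE. In that comparison 11.6% of all genes kept were lower and 7.16% higher.

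**Figure D3:**
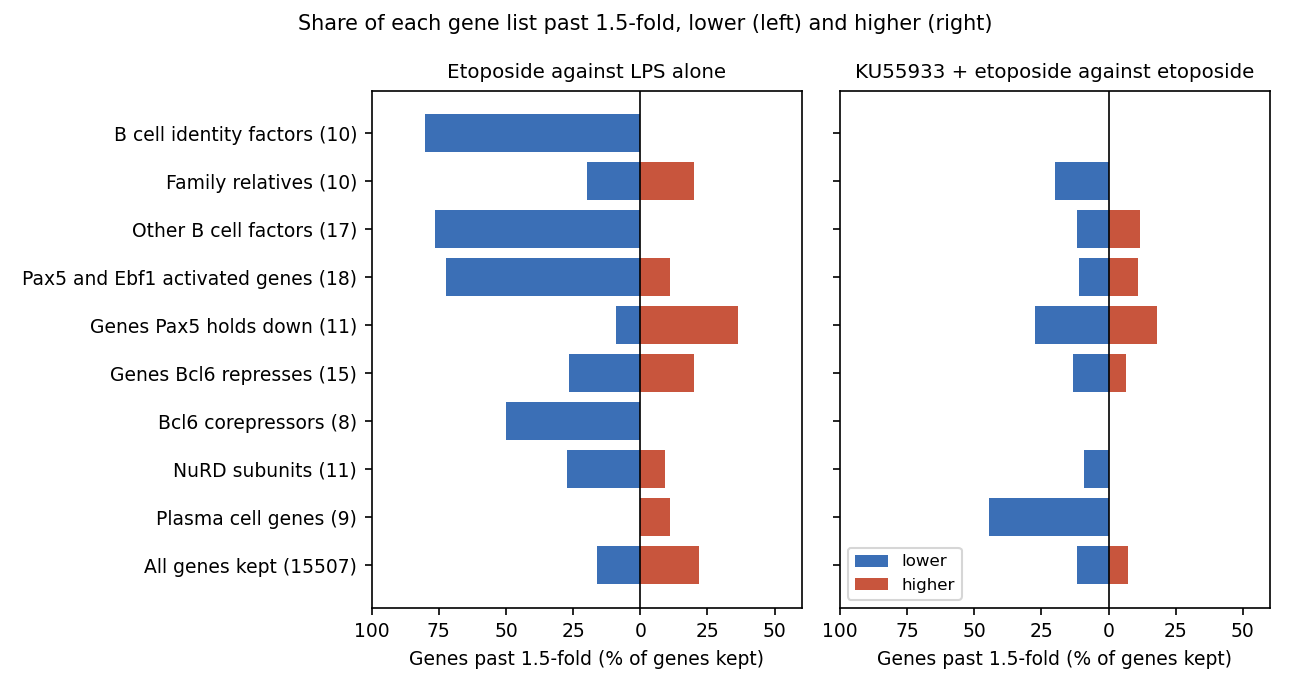
Share of the genes of each list, in percent of those kept (number in brackets), that were lower (left of 0) or higher (right of 0) past 1.5-fold, with etoposide against LPS and with KU55933 and etoposide against etoposide. The bottom bar gives all 15507 genes kept. Lower shares were 8 of 10 for the identity factors and 13 of 17 for other B cell factors with etoposide, and 0 of 10 and 2 of 17 with KU55933.

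The cells carried the markers of B cells throughout. The 8 defining markers summed to 577136 counts with LPS, 441011 in LE and 453110 in LEKU, and none was under 10 counts in any condition. Of these sums Ighm alone gave 344774, 291404 and 297739 counts. With etoposide 5 of the 8 were lower past 1.5-fold (median log2 fold change -0.64), beside 16.2% of all genes kept. Cd22 (-2.49) and Ptprc, from 25841 counts to 10243 (-1.33), fell most. These falls moved with that of the identity factors. Markers of T cells summed to 441, 324 and 289 counts, of which Lck gave 424, 294 and 269. The T cell receptor genes Cd3e, Cd3d and Cd3g stayed at 0.698 to 3.60 counts. Markers of macrophages and monocytes summed to 11707, 10207 and 9430 counts, mostly Ctss and Mpeg1, which B cells also express. Of the 6 of these markers that passed the filter in both LPS and LE, 1 was higher and 1 lower with etoposide (median -0.13). Of all genes that passed it in both, 16.4% were higher and 17.2% lower. Cd68 rose from 105 counts to 211 and Itgam fell from 220 to 129, while Csf1r and Cd14 (5.17, 24.2 and 40.6 counts) were kept only through the treated libraries. Markers of dendritic cells summed to 2950, 1909 and 3399 counts, mostly Flt3, with Siglech and Clec9a under 1 count and Zbtb46 at 103, 181 and 407. Markers of red blood cells summed to 71.0, 91.8 and 46.2 counts, and those of NK cells, 4 of 5 matched, to 23.9, 28.7 and 25.4. The part of these markers in the changes of the identity factors was not tested. As a check of the treatment, 8 genes that p53 induces were looked up. The 7 that passed the filter in both LPS and LE were all higher with etoposide (median 3.17), Cdkn1a and Phlda3 most. Of all genes that passed it in both, 16.4% were higher. Eda2r was kept only through the treated libraries. With KU55933 4 of the 8 fell (median -0.61), Eda2r (-1.19) and Mdm2 (-0.81) most, beside 11.6% of all genes kept.

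Among the 10 factors, those with longer genes tended to fall further. Genomic spans, from the first to the last annotated base in GENCODE M21, ran from 6.08 kb for Spib through 23.8 kb for Bcl6, 24.1 kb for Tcf3, 26.4 kb for Pou2af1, 81.1 kb for Ikzf3, 87.9 kb for Ikzf1, 92.4 kb for Pou2f2 and 186 kb for Pax5 to 347 kb for Bach2 and 391 kb for Ebf1. The factors that stayed within 1.5-fold were the 2 with the shortest spans. Spearman's rho between span and log2 fold change with etoposide was -0.73 over the 10 factors and -0.06 over the 15431 genes with an annotated span, both as descriptions, since genes of the same libraries are not independent.

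In classes of span, the median log2 fold change of all genes kept with etoposide was 0.01 under 10 kb (5480 genes), 0.03 from 10 to 30 kb (4590), -0.06 from 30 to 100 kb (3836), -0.22 from 100 to 300 kb (1313) and -0.50 from 300 kb (212 genes, of which 46.7% were lower past 1.5-fold). Restricted to genes with at least 100 counts in every condition, a restriction chosen after the values were seen, the medians of the last 2 classes were -0.38 (907 genes) and -0.98 (115 genes, 70.4% lower). Each of the 8 factors that fell stood under the median of its class. After subtraction of the class median of all genes kept, which was also added after the values were seen, 8 factors were lower and 0 higher past 1.5-fold, with a median of -1.51 (range -2.30 to 0.41). The medians of the restricted set, lower in the last 2 classes, were not subtracted. With them less of the fall of Pax5, Bach2 and Ebf1 would remain. Tcf3 and Pou2af1 lay in the same class as Bcl6, close to its span, and differed from it in log2 fold change, at -1.21 and -1.49 against -0.37. With KU55933 against LE the class medians ran from -0.02 to -0.16 and the 10 factors had a median of 0.08 after their subtraction, with 0 past the call. The part of span in the result was not tested.

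**Figure D4:**
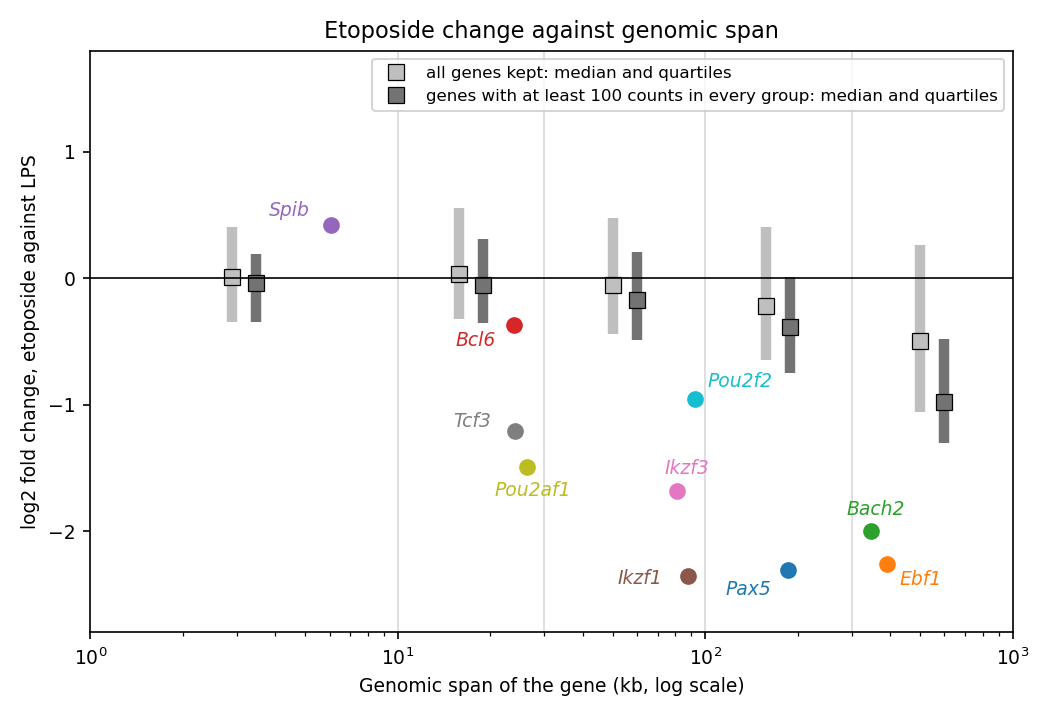
Log2 fold change with etoposide against LPS of the 10 factors (coloured points) against genomic span in kilobases (log axis). Squares and bars give the median and the quartiles of all genes kept in 5 classes of span, and of those with at least 100 counts in every condition. The factors run from Spib at 6.08 kb and 0.42 to Ebf1 at 391 kb and -2.26, and 9 of the 10 lie under 0.

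Some counts of these factors may hold reads of a neighbour. The exons of Pax5 share 636 bases with 5730488B01Rik and 125 bases with Gm12462, and those of Bach2 share 537 bases with Bach2os, all on the opposite strand. Mean counts of these 3 genes were 58.9, 12.6 and 20.8, well under the 1122 and 1221 counts of Pax5 and Bach2 in LE. The strand setting of the counting is not given in the sources used here. The exons of Bcl6 overlap Gm37419 by 21 bases and those of Pou2f2 overlap Mir6537 by 35 bases.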

How the data were processed

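Total polyadenylated RNA was sequenced from 12 libraries of LPS-activated splenic B cells, grouped into 3 conditions of 4 by the sample labels. Per the submitters' processing notes and the methods of the study, reads were trimmed with Trim Galore and cutadapt 1.2.1, mapped to GRCm38 with TopHat2 2.0.12, counted with HTSeq on Ensembl 78 genes and normalized and fitted with DESeq2 1.6.3. The strand setting is not given in the sources used here. The deposited table holds a signal, the normalized count, for 29486 genes in each library. Its columns were tested and are means fitted per condition times a library factor (deviation at most 1.4e-14 on the log2 scale), so that no spread between replicates, standard deviation or p-value could be computed, and limma, which was planned for values per replicate, could not be run. Fitted ratios were narrower at low counts, as in a fit moderated toward 0: the largest absolute log2 ratio of LE to LPS was 1.80 for genes with a mean under 1 and 7.62 for genes with a mean of 100 or more. The 3 comparison files of the authors hold a mean, a log2 fold change with its standard error, a test statistic and p-values before and after adjustment per gene, and were not used.

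The filter kept 15507 genes whose deposited value reached 10 in 4 or more libraries. Columns were scaled by median-of-ratios factors, averaged per condition, and compared as log2 of the value plus 1. A gene was called at more than 1.5-fold. On this scale changes of low genes are understated. Levels per kilobase used the exonic length in GENCODE M21, which shares the build GRCm38 with the files and matched 99.2% of the gene identifiers. Promoter windows came from RefSeq on GRCm38.p6.

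The factors, the 17 gene lists and the alternatives were chosen with earlier results of these data known. From each list, the 2 largest rises and 2 largest falls past the call with at least 50 counts in a condition were named for each of LE against LPS and LEKU against LE, besides all 10 factors and any gene of the Id, family relative and p53 lists. Prdm1, Notch1, Csf1r, Cd14, the single marker genes of other cell types and the pair sets for level ratios were named after their values were seen, as were the span classes. Lists overlap, among others in Prdm1, Id2, Btk, Irf4, Sdc1, Flt3, Cdkn1a and the B cell markers. Single values of 1 gene that the rule names are not reported here. Functions for scaling were tested on simulated data. Alternatives were pseudocounts of 0.5 and 5, no filter, a minimum of 50 counts, a lower and a higher call (1.25-fold and 2-fold), TMM factors (trims of 30% and 5%), library totals, the upper quartile, quantile normalization, the columns as deposited, subtraction of the span class median, and only genes that passed the filter in both LPS and LE (the last 2 added after the data were seen). Scripts ran under Python 3.11.15 (numpy 2.4.6, pandas 2.3.3, scipy 1.17.1, matplotlib 3.10.9).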

Additional observations from a re-analysis of the deposited data

How the results depend on the processing

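The count of factors lower with etoposide was 8 under every alternative except the call at 2-fold, where it was 7 and Pou2f2 (-0.96) was no longer past it, and the lower call, where it was 9 and included Bcl6 (-0.37). The count of factors higher in LE against LPS was 0, and 1 with quantile normalization, with the columns as deposited and with the lower call. In LEKU against LPS it was 0, and 1 with TMM factors, library totals, the upper quartile, quantile normalization, the columns as deposited and the lower call. The gene was Spib each time, with log2 fold changes of 0.69 and 0.76 in LE and of 0.59, 0.70, 0.62, 0.84 and 0.76 in LEKU in the order of the scalings given. In LEKU against LE the count past the call was 0, and 1 with quantile normalization, 1 higher (Tcf3, 0.61), and 3 with the lower call, 1 lower (Pou2f2) and 2 higher (Bcl6 and Tcf3). In LEKU against LPS Tcf3 (-0.69) was no longer past the call with library totals (-0.52), quantile normalization (-0.42), the columns as deposited (-0.45) and 2-fold. The cause of these differences was not tested. Changes of single factors in LEKU against LE lay near 0 for Pax5, Ikzf1, Ikzf3 and Pou2af1, and their sign changed with the scaling, as did that of Bcl6 in LEKU against LPS (-0.01 to 0.24).

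The median log2 fold change of all genes in LE against LPS was -0.01, and 0.11 with library totals, 0.32 with the columns as deposited and -0.09 with quantile normalization. The split of genes lower and higher moved from 2517 and 3401 to 1844 and 3912, 1139 and 5146, and 3298 and 2627 in the same order. In LEKU against LE it moved from 1797 and 1110 to 1551 and 1523 with quantile normalization and 2331 and 800 with the columns as deposited, and in LEKU against LPS from 2409 and 3182 to 1604 and 4148 with library totals, 2629 and 2405 with quantile normalization and 1389 and 4593 with the columns as deposited. With a minimum of 50 counts the median of the red blood cell markers in LE against LPS changed sign from 1.63 to -0.48, as that filter leaves fewer genes, and it was -0.54 over the genes that passed the filter in both LPS and LE, a restriction added after the data were seen. No paired analysis was possible because the columns are fitted means that hold no spread between replicates, and leaving out a replicate was not run for the same reason. Depth does not limit the counts of these factors, the lowest of which was 584, whereas the missing replicate spread limits every comparison.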
